A study of Bos taurus with 24 samples.

Results

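The gene features ENSBTAG00000002749, ENSBTAG00000019386, ENSBTAG00000016894 and ENSBTAG00000025340 were followed in the testis of every bull and in each of their exon bins. They are 4 of the 24525 gene features in the count tables, and they were picked because earlier results of these data placed them among the largest differences of HD bulls from MD or LD bulls. Those differences are therefore given below as a description. Where calls and places by p from the fit over all features are printed for them, they only say where the chosen genes stand and test nothing about them. The files pair none of the 4 identifiers with a gene name, and the reference table of gene symbols used here matched 0 of the 4, so they are called by their identifiers and no function is given for them. For the same reason no sequence or genome position of these genes is shown.

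Testicular parenchyma was taken from 24 Holstein bulls at 72 wk of age, and 1 RNA library was sequenced per bull. As calves, 8 bulls received the high diet (HD; 20% crude protein and 67.9% total digestible nutrients), 8 the medium diet (MD; 17% and 66%) and 8 the low diet (LD; 12.2% and 62.9%). MD was the control diet. All bulls were fed MD from the end of the feeding period until tissue collection, so that differences between groups were measured long after the diets had ended. The study asked how feeding before puberty affected the testis after puberty.

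Testicular parenchyma holds seminiferous tubules, in which Sertoli cells support germ cells at every stage from spermatogonia to elongating spermatids, and an interstitium with Leydig cells, vessels and macrophages. Its RNA is a mixture of all of these, and germ cells at different stages carry very different transcripts. In such a bulk sample, fewer cells of a type and less RNA per cell cannot be told apart. A gene is counted here in exon bins, the stretches into which the exons of all its transcripts are cut, so each gene can be read both as a whole and along its length. Agreement between bins shows whether a difference lies over the whole gene or in some of its exons.

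Libraries held between 9163675 and 21902110 counts on genes, with the lowest in HD bull 14 and the highest in HD bull 11. Reads outside exons made up 9.54% to 15.6% of a library in HD, 11.4% to 21.4% in MD and 10.3% to 15.96% in LD, with the highest in MD bull 6. Alignments of low quality averaged 11.5% in HD against 7.80% in MD and 8.24% in LD, and HD bulls 12 (20.99%) and 8 (17.9%) stood above the rest. The part of these shares in the differences between diets was not tested beyond the fits with each share as a covariate. Those fits and the relations of each gene with both shares across bulls within diets are given below. Defining markers of testicular cell types were not analysed here.

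Levels are given as CPM, gene counts divided by the TMM-normalized library size in the usual unit. Each of the 4 genes passed the filter on low counts, which 15005 features did. ENSBTAG00000002749 was the lowest, above 29.1% of those features in mean level, ENSBTAG00000016894 and ENSBTAG00000019386 lay near the middle (54.0% and 55.5%) and ENSBTAG00000025340 was above 67.3%. Counts per library ran from 29 to 192 for ENSBTAG00000002749, from 81 to 1003 for ENSBTAG00000019386, from 120 to 583 for ENSBTAG00000016894 and from 133 to 1881 for ENSBTAG00000025340. At the median count, the counting error of a single library was 11.2%, 6.26%, 5.49% and 4.27% in the same order. This error covers the counting of independent reads only and is too small where a read was counted in more than 1 bin. With 1 library per bull, the spread between bulls holds that of the library preparation as well.

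ENSBTAG00000002749, with 12 exon bins, was highest in HD, intermediate in LD and lowest in MD. In HD bulls the lowest, median and highest levels were 5.32, 9.25 and 14.1 CPM. The MD levels were 1.87, 3.43 and 4.67 CPM, and the LD levels were 3.58, 5.56 and 9.27 CPM. The lowest HD bull (bull 10) thus lay above the highest MD bull (bull 19), and the groups did not overlap. LD bulls overlapped with both other diets. Group means were 9.55 ± 3.05 CPM in HD, 3.45 ± 0.983 in MD and 5.86 ± 1.96 in LD (SD, n = 8 each).

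The HD mean of ENSBTAG00000002749 was 2.77 times the MD mean and 1.63 times the LD mean, and the LD mean was 1.70 times the MD mean. On the log2 scale the fitted difference of HD from MD was 1.46 (SE 0.23), that of HD from LD 0.70 (SE 0.22) and that of MD from LD -0.76 (SE 0.23). Every HD bull exceeded every MD bull in this feature alone, which is 0.00666% of the features tested. Among pairs of 1 HD and 1 LD bull, the HD bull was higher in 55 of 64, and 4 HD bulls were above all LD bulls. An MD bull exceeded an LD bull in 8 of 64 pairs.

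ENSBTAG00000019386, with 6 exon bins, was low in LD bulls and at overlapping levels in HD and MD bulls. The lowest, median and highest levels were 16.3, 26.4 and 73.1 CPM in HD, 15.7, 23.8 and 40.6 CPM in MD, and 3.92, 13.7 and 18.04 CPM in LD. HD bull 8 stood highest at 73.1 CPM, followed by HD bull 11 at 46.5 CPM, while LD bull 3 stood lowest. The LD range met the lower ends of the HD and MD ranges, and 6 of the 8 LD bulls were below all bulls of the other diets. Means were 33.2 ± 19.9 CPM in HD, 26.3 ± 9.99 in MD and 12.2 ± 5.25 in LD (SD, n = 8 each).

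The fitted log2 difference of ENSBTAG00000019386 was 1.45 (SE 0.33) for HD against LD and 1.11 (SE 0.32) for MD against LD. HD against MD gave 0.34 (SE 0.32), and the HD bull was the higher in 39 of 64 pairs. Against LD bulls, HD bulls were higher in 60 of 64 pairs and MD bulls in 61 of 64. Bull 8 carried much of the HD to MD difference, which was 0.06 without it, whereas HD against LD was still 1.17 without it. The HD mean was the highest in this gene too, and 3 HD bulls were above all MD and LD bulls.

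ENSBTAG00000016894, with 31 exon bins, was lower in HD bulls than in all others. Its lowest, median and highest levels were 10.7, 17.1 and 19.2 CPM in HD, 20.2, 25.9 and 37.7 CPM in MD, and 20.7, 24.0 and 28.5 CPM in LD. The highest HD bull (bull 11) lay below the lowest MD bull (bull 18) and the lowest LD bull (bull 22). The LD range lay within the MD range, and 2 MD bulls were above all LD bulls. Means were 16.5 ± 2.57 CPM in HD, 26.8 ± 5.74 in MD and 24.0 ± 2.57 in LD (SD, n = 8 each).

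Each HD bull was below each MD bull in 0.0400% of features and below each LD bull in 0.0333%, and the full separation of HD from both other diets occurred in ENSBTAG00000016894 alone (0.00666%). The fitted log2 difference of HD bulls was -0.69 (SE 0.14) from MD and -0.54 (SE 0.13) from LD, and MD differed from LD by 0.16 (SE 0.13), which was 0.07 without MD bull 6 and 0.08 after fitting the outside-exon share of reads. The coefficient of variation between bulls of ENSBTAG00000016894 came to 15.6% in HD, 21.5% in MD and 10.7% in LD, while the median feature had 33.7%, 23.3% and 21.6%.

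ENSBTAG00000025340, with 30 exon bins, was also low in HD bulls, with a wide range in the other diets. The lowest, median and highest levels were 11.2, 20.6 and 29.2 CPM in HD, 21.8, 49.1 and 92.2 CPM in MD, and 25.8, 46.1 and 91.0 CPM in LD. MD bulls 17 and 6 and LD bulls 22 and 20 lay within the HD range, so that the diets overlapped at their edges, and 4 HD bulls were below all other bulls. Means were 19.9 ± 7.33 CPM in HD, 51.6 ± 25.4 in MD and 54.1 ± 25.2 in LD (SD, n = 8 each).

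The MD mean of ENSBTAG00000025340 was 2.59 times and the LD mean 2.72 times the HD mean. On the log2 scale, HD against MD was -1.37 (SE 0.31), HD against LD was -1.44 (SE 0.31) and MD against LD was -0.07 (SE 0.30). An HD bull exceeded an MD bull in 7 of 64 pairs and an LD bull in 4 of 64, and MD exceeded LD in 32 of 64. The coefficient of variation between bulls was 49.2% for MD and 46.5% for LD, above the 23.3% and 21.6% of the median feature, and 36.8% for HD, near the 33.7% of the median feature.

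**Figure D1:**
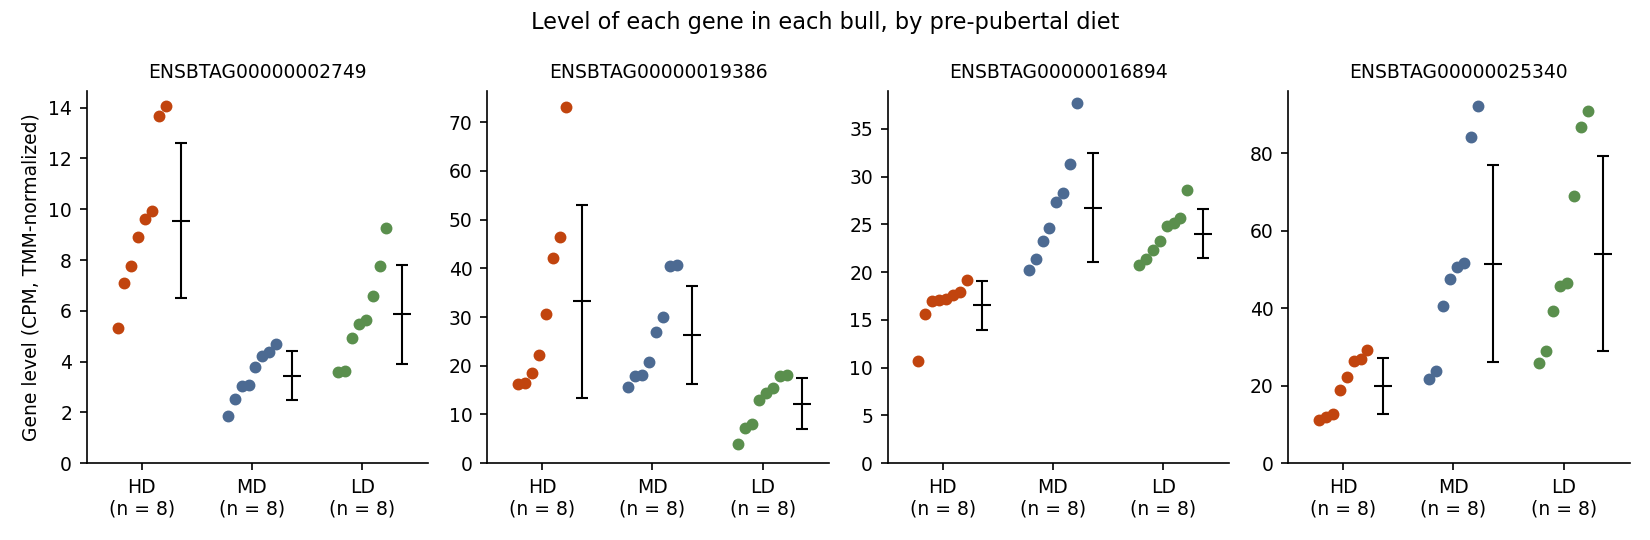
Level of each of the 4 genes in CPM (y axis, linear from 0, a scale per panel) in each bull (points, sorted within a diet), with the mean and SD of the 8 bulls of each diet (bars). HD bulls of ENSBTAG00000002749 (5.32 to 14.1 CPM) do not overlap with MD bulls, those of ENSBTAG00000016894 (10.7 to 19.2 CPM) lie below all others, and in ENSBTAG00000019386 it is the LD bulls (3.92 to 18.04 CPM) that lie low.

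In the fit across all 15005 features, edgeR's quasi-likelihood test called 14.1% of features between HD and MD at an adjusted p under 0.1, and 3 of the 4 genes were among them (ENSBTAG00000002749, ENSBTAG00000016894 and ENSBTAG00000025340). As these genes were chosen on the differences of HD from MD or LD, nothing is read from that count or from those between HD and LD. The call between HD and MD remained for ENSBTAG00000002749 alone, and for 1 feature in all, when HD bull 7, 8 or 13 or MD bull 4, 6, 16, 17 or 19 was left out or the share of reads outside exons was a covariate, and 0 features were called with the share of low quality alignments as a covariate (2271 at an unadjusted p under 0.05). Between HD and LD edgeR called 0.00% of features and 0 of the 4 genes, although 2661 features had an unadjusted p under 0.05, while DESeq2's Wald test called 539 features, 6.72% of the 8023 to which it gave an adjusted p. These included 3 of the 4 genes, and ENSBTAG00000002749 was given no adjusted p. Between MD and LD edgeR called 0.00% and 0 of the 4, with 161 features at an unadjusted p under 0.05, and DESeq2 called 0. Ranked by p in edgeR, ENSBTAG00000002749 stood at place 1 (HD with MD), 275 (HD with LD) and 9 (MD with LD). ENSBTAG00000019386 stood at 9244, 4 and 7, ENSBTAG00000016894 at 2, 14 and 1690, and ENSBTAG00000025340 at 9, 2 and 11392. The 3 contrasts share bulls, so these positions are not independent of each other.

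The spread between bulls of the same diet enters the p by which the genes stood out, so it is also given as a description. The biological coefficient of variation that edgeR fitted was 30.4% for ENSBTAG00000002749, near the 32.9% of the trend for genes of its level. ENSBTAG00000019386 (43.9% against a trend of 28.8%) and ENSBTAG00000025340 (41.5% against 27.3%) varied more than the trend, and ENSBTAG00000016894 (19.3% against 29.0%) varied less.

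The exon bins showed how each difference was spread along its gene. Bins of a gene share bulls and also reads, because a read that crosses bins can be counted in each, so they are no replicates, and their counts below are a description. Bins are numbered in the order of the files. The files used here give neither bin lengths nor strand, so levels are compared within a bin and not between bins. Bins with a mean of at least 5 counts per library were used.

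In ENSBTAG00000002749, 10 of 12 bins were used, and in each of the 10 the mean was highest in HD and lowest in MD. The log2 ratio of HD to MD ran from 0.99 in bin 12 to 1.88 in bin 1, with a median of 1.51. Bin 1 held 0.747 ± 0.250 CPM in HD and 0.203 ± 0.102 CPM in MD (SD, n = 8 each), and it was the single bin in which HD and MD bulls did not overlap. The HD to LD ratio ran from 0.27 in bin 3 to 1.03 in bin 10, with a median of 0.71, and MD to LD was negative in 10 of 10. The bins not used were bin 8, with 115 counts in all, and bin 9, with 6 counts in 5 libraries. The separation of HD from MD bulls in the whole gene was thus made of the same direction in each covered bin, while single bins overlapped in 9 of 10 cases.

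ENSBTAG00000019386 was dominated by bin 3, with 44.0% of its counts, and bin 4, with 32.3%. In bin 3 HD bulls averaged 15.6 ± 11.5 CPM, MD bulls 11.4 ± 5.50 and LD bulls 4.81 ± 2.52 (SD, n = 8 each), a log2 ratio of HD to LD of 1.70. In bin 4 the means were 11.05 ± 6.68, 8.62 ± 3.23 and 3.49 ± 1.93 CPM, and the ratio was 1.66. The difference between diets was not even along the gene. Bin 2, with 249 counts in all, was at 0.775 ± 0.310 CPM in HD, 0.654 ± 0.269 in MD and 0.751 ± 0.405 in LD, and its log2 ratio of HD to LD was 0.05. HD was above LD in 6 of 6 bins and above MD in 4 of 6, and MD was above LD in 5 of 6. Bin 3 alone took from 24.0% to 65.4% of the counts of this gene in single bulls.

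In ENSBTAG00000016894, 30 of 31 bins were used and no single bin held over 7.57% of the counts. HD was below MD in 30 of 30 bins and below LD in 28 of 30. The log2 ratio of HD to MD ran from -1.21 in bin 9 to -0.03 in bin 21, with a median of -0.72, and HD to LD had a median of -0.56. Bin 2 was the only one in which HD and MD bulls did not overlap, at 0.795 ± 0.184 CPM in HD and 1.64 ± 0.236 CPM in MD, with LD at 1.52 ± 0.288 CPM (SD, n = 8 each). The exceptions against LD were bins 22 and 23, which are neighbours. There HD was at 0.478 ± 0.200 and 0.384 ± 0.174 CPM and LD at 0.374 ± 0.136 and 0.364 ± 0.157 CPM, and MD was highest at 0.614 ± 0.228 and 0.590 ± 0.216 CPM.

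ENSBTAG00000025340 was covered in part of its annotated bins. Bins 1 to 11 together held 47 of 15066 counts (0.312%, 95% Wilson interval 0.235% to 0.415%, for counting error only), and 3 of these bins had no count in any of the 24 libraries. As a share of the counts of the gene in each diet, these bins held 0.137% in HD (3 of 2182 counts, 95% Wilson interval 0.0468% to 0.403%), 0.382% in MD (23 of 6018, 0.255% to 0.573%) and 0.306% in LD (21 of 6866, 0.200% to 0.467%). These intervals pool the reads of all bulls of a diet and leave out the spread between bulls, so they do not compare the diets. All 3 of the HD counts came from bull 9, and 10 of the 21 LD counts from bull 3. The other 19 bins, 12 to 30, carried the gene, and bin 18 alone held 16.3% of its counts, at 2.95 ± 1.08 CPM in HD, 8.45 ± 4.33 in MD and 9.03 ± 4.27 in LD (SD, n = 8 each). HD was below MD in 19 of 19 bins (-1.76 to -1.003) and below LD in 19 of 19 (-1.92 to -1.06). The MD to LD ratio was positive in 7 bins and negative in 12, between -0.39 and 0.13. The positive ones were bins 12 to 17 and bin 28.

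**Figure D2:**
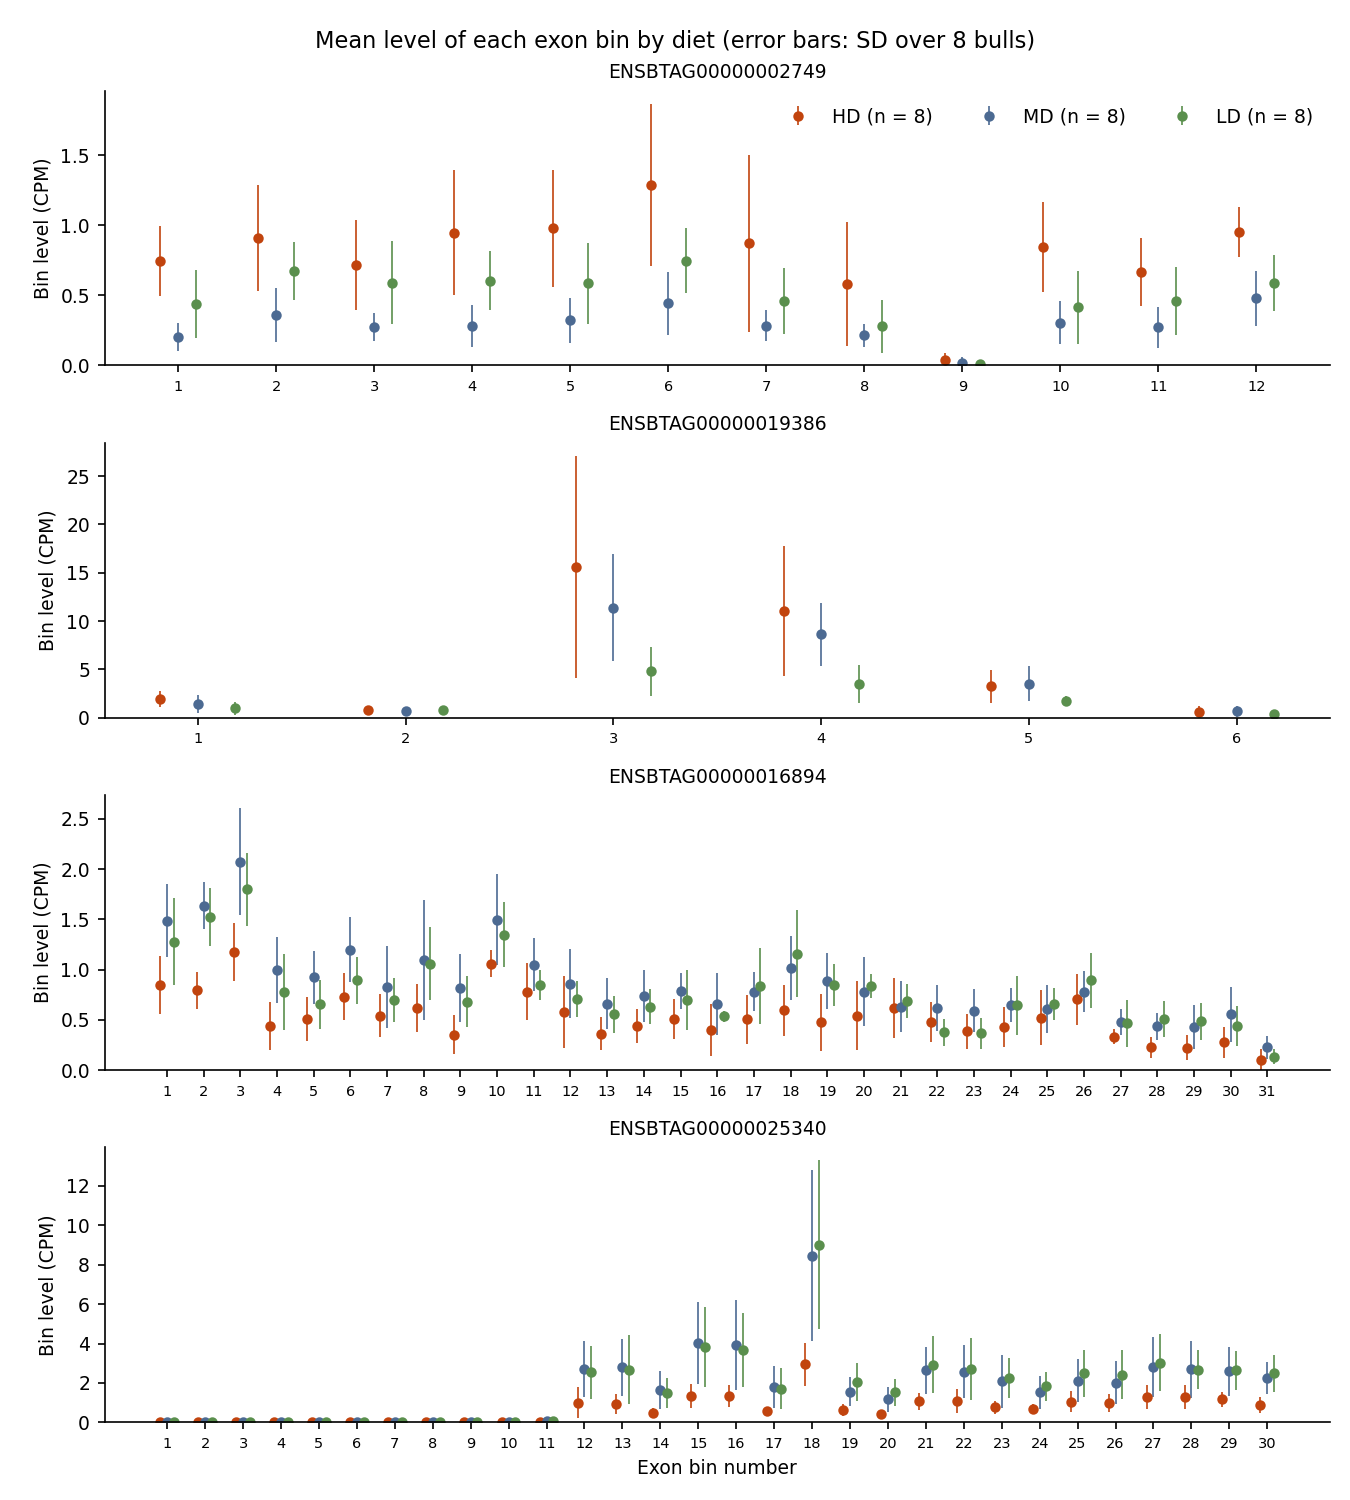
Mean level of each exon bin in CPM (y axis, from 0, a scale per panel) by bin number (x axis) in HD, MD and LD, with error bars of 1 SD over 8 bulls. ENSBTAG00000025340 has almost no counts in bins 1 to 11, and in ENSBTAG00000019386 bins 3 and 4 hold 44.0% and 32.3% of the counts.

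**Figure D3:**
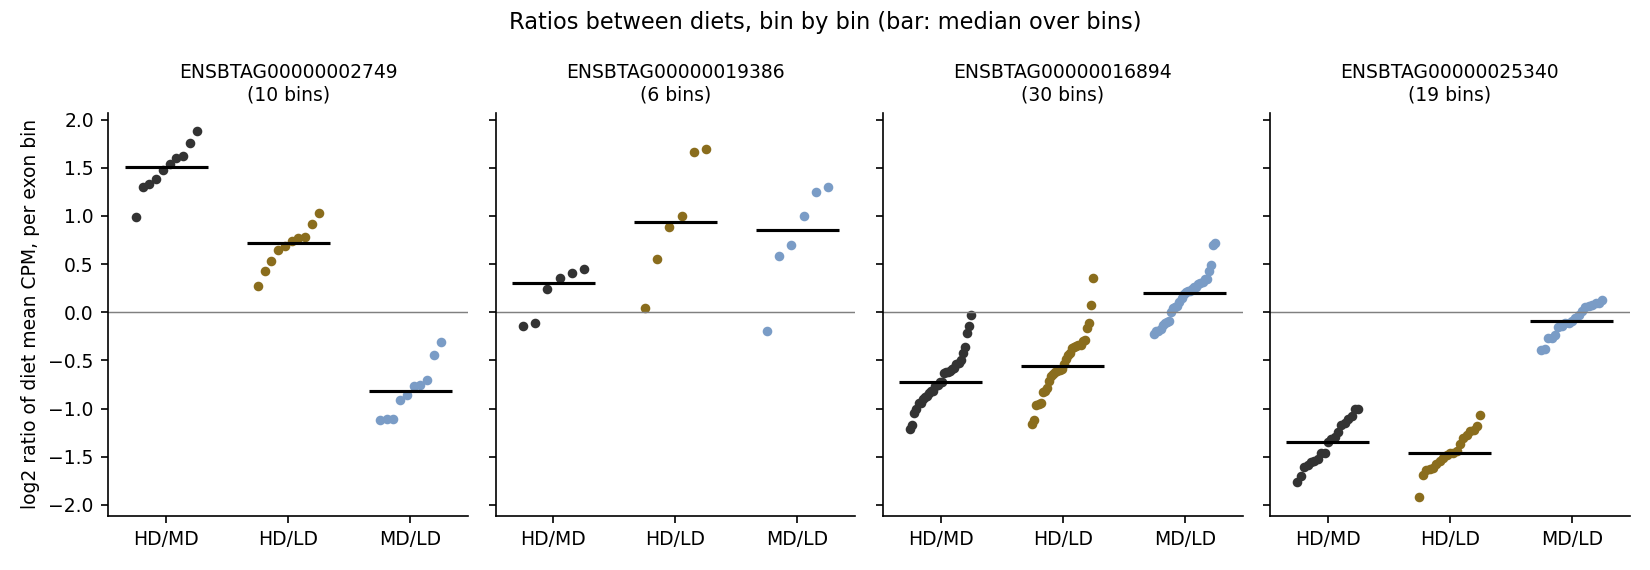
Log2 ratio of diet means in each exon bin with a mean of at least 5 counts (points, sorted), for HD to MD, HD to LD and MD to LD, with the median over bins (bars). HD to MD ratios are positive in all 10 bins of ENSBTAG00000002749 and negative in all 30 of ENSBTAG00000016894 and all 19 of ENSBTAG00000025340, while those of ENSBTAG00000019386 lie on both sides of 0.

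The covered bins of each gene were also divided into a lower-numbered and a higher-numbered set of nearly equal size. The HD to MD log2 ratio was 1.58 in the lower-numbered and 1.38 in the higher-numbered bins of ENSBTAG00000002749. It was 0.44 and 0.22 in those of ENSBTAG00000019386, -0.78 and -0.56 in those of ENSBTAG00000016894, and -1.55 and -1.18 in those of ENSBTAG00000025340. For HD to LD, the pair of values was 0.57 and 0.79 in ENSBTAG00000002749, 1.49 and 1.39 in ENSBTAG00000019386, -0.54 and -0.54 in ENSBTAG00000016894, and -1.57 and -1.31 in ENSBTAG00000025340. Both sets had the direction of the whole gene in these comparisons. As they split the counts on which the genes were chosen and share bulls and reads, this is a description and no support.

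Single bulls differed in where along a gene their counts lay. In HD bull 13, the lower-numbered bins held 78.3% of the counts of ENSBTAG00000016894, against a next highest of 68.5% in any bull, and this was also the HD bull with the lowest level of that gene. The same bull had the highest share in ENSBTAG00000002749 (58.2%) and the second lowest in ENSBTAG00000025340 (39.1%). HD bull 7 had 74.3% of ENSBTAG00000019386 in its lower-numbered bins, where the next bull had 60.7%. The part of this unevenness in the levels was not tested. As strand is not used here, the lower-numbered end can be either end of the transcript.

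**Figure D4:**
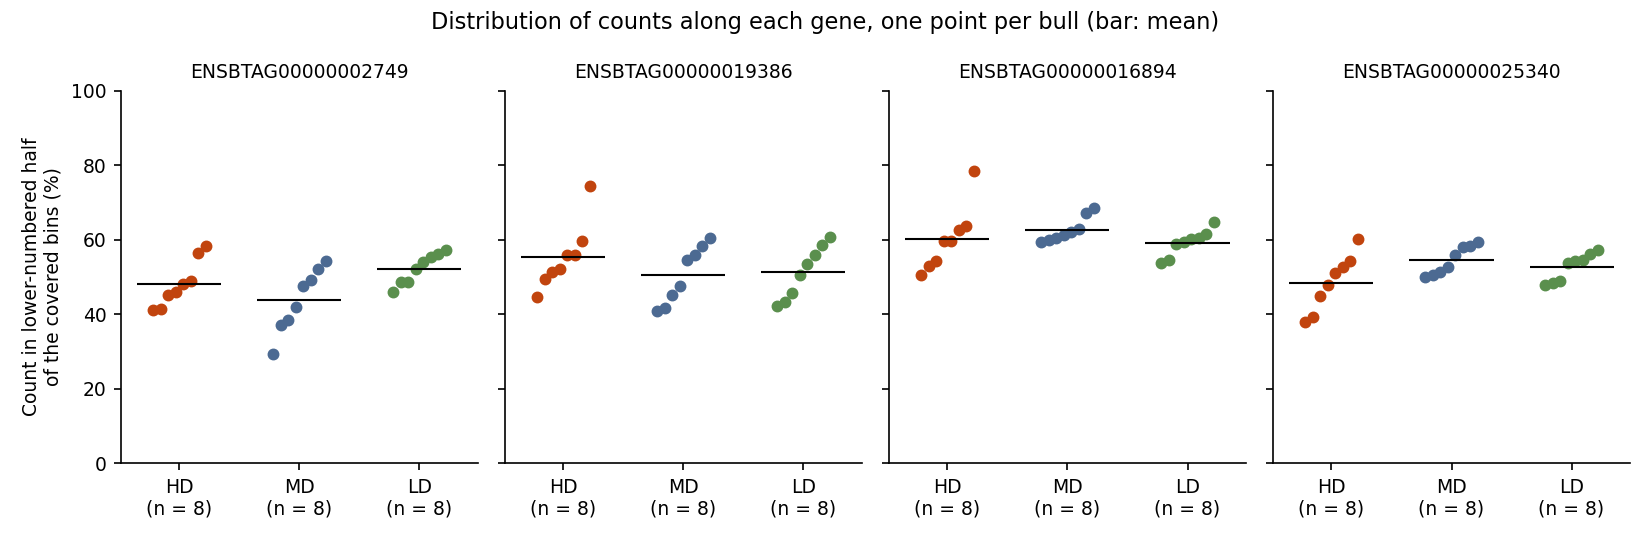
Share of the counts of each gene in the lower-numbered set of its covered bins, in percent (y axis, 0 to 100), in each bull (points) with the mean of each diet (bars). HD bull 13 stands alone at 78.3% in ENSBTAG00000016894, and HD bull 7 at 74.3% in ENSBTAG00000019386.

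Relations across bulls within diets were tested next, after subtracting the diet mean from each log2 CPM and from each technical measure, so that the differences between diets on which the genes were chosen do not enter. In all, 14 relations were computed: each gene with the share of reads outside exons and with the library total, and the 6 pairs of genes. Each was tested with 100000 two-sided permutations within diets and Benjamini-Hochberg adjustment over the 14. Only ENSBTAG00000016894 and the share of reads outside exons had an adjusted p under 0.1, with r = 0.60 (permutation p = 0.00623, adjusted 0.0872, n = 24). The rank correlation of the same relation was rho = 0.50 (permutation p = 0.0182, adjusted 0.255). How common a relation of this strength is among all features was not counted, so it is not shown to be particular to ENSBTAG00000016894.

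With the most covered bin of the gene in place of the sum over bins, r was 0.22 (permutation, adjusted p = 0.696), which is not past the threshold. On plain library sizes without TMM, r was 0.72 (permutation, adjusted p = 0.00364) and rho was 0.66 (permutation, adjusted p = 0.0154). The relation as reported rested in part on the bulls at its ends. Without HD bull 14 and MD bull 6, the 2 farthest from the median of the diet-centred share, r was 0.42 (permutation p = 0.0555, n = 22). Within diets, r reached 0.37 for HD bulls (exact permutation p = 0.422), 0.76 in MD (exact permutation p = 0.0243) and 0.51 in LD (exact permutation p = 0.190), with 8 bulls each. The rank correlations were 0.29, 0.71 and 0.60 (exact permutation p = 0.501, 0.0576 and 0.132). HD bulls, in which this gene was low, had a median share of 12.04% of reads outside exons, against 14.2% in MD and 13.4% in LD. With the share as a covariate, the log2 difference of ENSBTAG00000016894 was -0.56 between HD and MD and -0.48 between HD and LD.

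Of the other genes, ENSBTAG00000019386 had r = -0.29 (permutation p = 0.157, adjusted 0.486) and rho = -0.38 (permutation p = 0.0788, adjusted 0.368) with the share outside exons. ENSBTAG00000002749 had r = -0.25 (permutation p = 0.249, adjusted 0.486) and ENSBTAG00000025340 had r = 0.04 (permutation p = 0.867, adjusted 0.933). With this covariate, HD against MD was 1.38 for ENSBTAG00000002749 and -1.30 for ENSBTAG00000025340, and HD against LD was 1.34 for ENSBTAG00000019386, whose HD to MD difference went from 0.34 to 0.11. With the share of low quality alignments as the covariate instead, chosen after it was seen to differ between diets, the differences were 1.30, -1.20, 1.24 and 0.12 in the same order, and HD against MD was -0.66 for ENSBTAG00000016894. The library total had no relation past the threshold with any of the 4 genes, with r between -0.29 and 0.23. The added share of low quality alignments had none either. Its r was 0.29, 0.21, -0.096 and -0.22 (permutation, adjusted p = 0.549, 0.549, 0.693 and 0.549) for ENSBTAG00000002749, ENSBTAG00000019386, ENSBTAG00000016894 and ENSBTAG00000025340. In the same order, rho was 0.40, 0.36, -0.18 and -0.24 (permutation, adjusted p = 0.217, 0.217, 0.369 and 0.310).

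**Figure D5:**
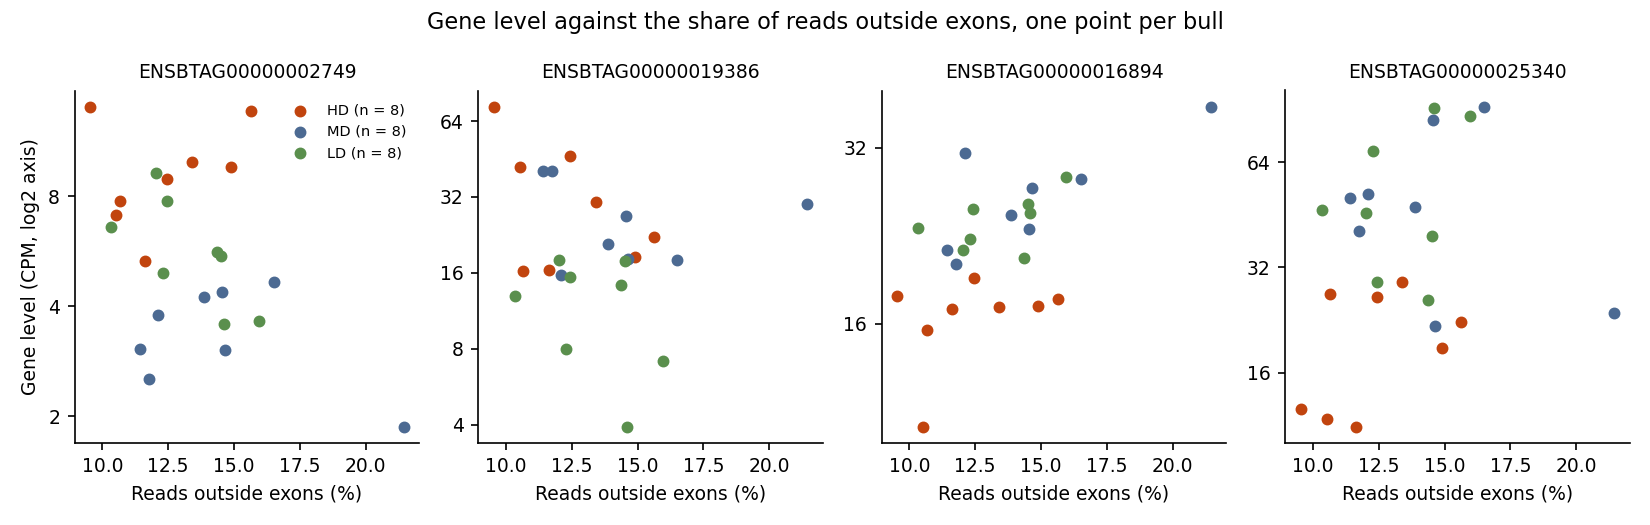
Level of each gene in CPM (y axis, log2 scale) against the share of reads outside exons in percent (x axis), with a point per bull coloured by diet. In ENSBTAG00000016894 the level is higher at higher shares (diet-centred r = 0.60), and MD bull 6, at 21.4%, is the rightmost and highest.

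None of the 6 pairs of genes passed the threshold. The strongest was ENSBTAG00000019386 with ENSBTAG00000025340, at r = -0.40 (permutation p = 0.0574, adjusted 0.402) and rho = -0.42 (permutation p = 0.0477, adjusted 0.334), and r was -0.26 without HD bull 8 and LD bull 3. LD bull 3 was the lowest LD bull in ENSBTAG00000019386 and the highest in ENSBTAG00000025340. ENSBTAG00000002749 with ENSBTAG00000019386 gave r = 0.35 (permutation p = 0.111, adjusted 0.486) and rho = 0.31 (permutation p = 0.161, adjusted 0.563). ENSBTAG00000016894 and ENSBTAG00000025340, which were both low in HD bulls, had r = 0.07 (permutation p = 0.766, adjusted 0.933) and rho = 0.09 (permutation p = 0.685, adjusted 0.775) over bulls of the same diet.

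The pairs were also taken in each diet alone, which made 42 relations with those of the share of reads outside exons and the library total. In LD, r was 0.84 for ENSBTAG00000002749 with ENSBTAG00000019386 (exact permutation p = 0.00657, adjusted 0.192) and -0.83 for ENSBTAG00000019386 with ENSBTAG00000025340 (exact permutation p = 0.00913, adjusted 0.192). Without the 2 farthest LD bulls these were 0.75 and -0.61. ENSBTAG00000002749 with ENSBTAG00000025340 had r = 0.79 in MD (exact permutation p = 0.0199, adjusted 0.255) and -0.70 in LD (exact permutation p = 0.0563, adjusted 0.406), and over all diets r = 0.12. The difference between the diets in these relations was not tested, and no relation within a diet held after adjustment over the 42. Relations with the share of low quality alignments in each diet were outside the 42 and were not adjusted. Their lowest exact permutation p was 0.0576 for rho (0.71, ENSBTAG00000002749 in LD) and 0.0661 for r (0.68, ENSBTAG00000019386 in MD).

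The diet-centred profile of each gene over the 24 bulls was compared with the profiles of the other 15004 features, as a description. The 3 highest Pearson correlations were 0.68, 0.68 and 0.64 for ENSBTAG00000002749, and 0.76, 0.66 and 0.66 for ENSBTAG00000019386. They were 0.82, 0.81 and 0.81 for ENSBTAG00000016894, and 0.75, 0.74 and 0.71 for ENSBTAG00000025340. The 3 lowest were -0.69, -0.67 and -0.63 for ENSBTAG00000002749, and -0.64, -0.63 and -0.62 for ENSBTAG00000019386. ENSBTAG00000016894 had -0.80, -0.79 and -0.79, and ENSBTAG00000025340 had -0.77, -0.65 and -0.63. ENSBTAG00000016894 had 6 features above 0.8 and 1 below -0.8, and the other 3 genes had 0. The median correlation lay between -0.018 (ENSBTAG00000002749) and 0.023 (ENSBTAG00000016894). The values above are extremes picked from 15004 features, and no chance level was computed for them, so they do not show shared regulation. The features are not named, since their identifiers had no symbol in the table used here, and the correlations share the depth and composition of the same 24 libraries.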

How the data were processed

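RNA-seq of testicular parenchyma from 24 bulls (8 each of HD, MD and LD, grouped by the diet in the labels) was used. The deposited values are raw counts of reads per exon bin and library, which the authors did not normalize. The submitters' processing notes name CASAVA 1.9, FastQC, TopHat2 2.0.10, Bowtie 1.1.2, featureCounts and DESeq2, and the UMD3.1 genome. The counter that made the exon bins and its strand setting are not given in the sources used here. Reads that cross bins can be counted in each, which would raise the sum over bins. Reads listed under no gene (ambiguous, poorly aligned or outside exons) were left out of library sizes and made up 18.7% to 36.1% of a library.

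Counts were summed per gene and fitted in R 4.3.3 with edgeR 4.0.16 (TMM, filterByExpr, glmQLFit and glmQLFTest), with all 24 libraries and diet as the only factor. The adjusted p (Benjamini-Hochberg over 15005 features) called a feature when under 0.1, the threshold of the study. The study used DESeq2, which was run as an alternative (DESeq2 1.42.0, default Wald test). Log2 CPM had a prior count of 0.5. Relations and exact tests were computed in Python 3.11.15 with numpy 2.4.6 and scipy 1.17.1. The fit was also run on simulated counts with planted changes, as a check of the code only. That outcome is not given here, and the simulated counts held no differences in library quality, so it does not vouch for the calls. Bulls are separate animals, and each was 1 replicate. No library looked like another of its diet deposited again (lowest chi-square per degree of freedom 10.2 over 84 pairs).

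The genes and lists were chosen with earlier results of these data known. The genes named are the 4 members, and the features with the 3 highest and 3 lowest correlations with each, which are given by their values only. The identifiers could not be matched to symbols, as 0 of 37063 entries of the RefSeq table (ARS-UCD2.0) carried an Ensembl identifier, so lists of cell type markers were not analysed here. Alternatives were other scalings, filters and covariates, DESeq2, 2 diets at a time, the most covered bin in place of the sum, and leaving out each bull.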

Additional observations from a re-analysis of the deposited data

Results flagged for a closer look

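Within groups of 8 bulls, 2 of 33 sets of values held a bull whose distance from its nearest neighbour passed Dixon's criterion, and chance alone gives about 1.65 such sets. HD bull 13 had 10.7 CPM of ENSBTAG00000016894, where the nearest HD bull had 15.6 CPM, a gap of 0.580 of the range. LD bull 3 had 19470903 counts on genes, where the nearest LD bull had 15065648, a gap of 0.674 of the range.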

How the results depend on the processing

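All 408 values of the 12 fold changes under alternative settings, 288 of them leaving out a bull, stayed within 1 SD (log2, between bulls of a diet) of those reported. That SD was 0.24 to 0.71, and leaving out a bull moves a group mean by only a part of it. The criterion is therefore weak and does not show stability. Leaving out a bull, HD against MD of ENSBTAG00000019386 ran from 0.06 to 0.45. In 4 of the 408 values the sign was opposite, all for ENSBTAG00000025340 between MD and LD (0.04 to 0.08, leaving out MD bull 6 or 17 or LD bull 1 or 3). Without TMM, on plain library sizes, the median feature shifted by -0.21 (HD against MD) and -0.17 (HD against LD). HD against MD was then 1.24, 0.10, -0.92 and -1.57 for ENSBTAG00000002749, ENSBTAG00000019386, ENSBTAG00000016894 and ENSBTAG00000025340.

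The counts of calls moved far more. Features called between HD and MD went from 2116 to 2937 with DESeq2, 3547 with library size only, 1298 with the most covered bin, 1 without the filter, with 2 diets only or with the share outside exons as covariate, 0 with the share of low quality alignments (2271 at an unadjusted p under 0.05, by edgeR), and 1 to 4019 leaving out a bull. The 3 genes called became 1 without the filter, with 2 diets, with the share outside exons and without HD bull 7, 8 or 13 or MD bull 4, 6, 16, 17 or 19, and 0 with the share of low quality alignments. Between HD and LD, 716 features and 3 of the genes were called without HD bull 12, and 539 and 3 by DESeq2. The causes were not tested.

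Of 76 alternative values of the relations, 66 kept sign and side of the threshold. With the most covered bin in place of the gene, the share outside exons had r = 0.23 with ENSBTAG00000002749 and 0.22 with ENSBTAG00000016894 (permutation, adjusted p = 0.696), and library total had r = 0.34 with ENSBTAG00000016894. The pairs ENSBTAG00000002749 and ENSBTAG00000019386, ENSBTAG00000019386 and ENSBTAG00000016894, and ENSBTAG00000016894 and ENSBTAG00000025340 then had -0.12, 0.039 and -0.047. Library total and ENSBTAG00000016894 had 0.0091 with library size only and 0.066 without HD bull 14, where library total and ENSBTAG00000019386 had -0.027. ENSBTAG00000002749 and ENSBTAG00000016894 had 0.098 after regression on the share outside exons. Apart from the share outside exons with ENSBTAG00000016894, each of these had the opposite sign as reported, where r lay between -0.25 and 0.35.

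A minimum mean of 20 counts per bin left 0 of 12 bins of ENSBTAG00000002749, 1 of 31 of ENSBTAG00000016894 (HD to MD -0.82, HD to LD -0.61), 4 of 6 of ENSBTAG00000019386 and 17 of 30 of ENSBTAG00000025340. No paired analysis was possible because each diet was fed to different bulls, allocated at random as calves.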
